A study of Mus musculus with 2 samples.

Results

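The genes described here encode the proteins that mark origins of DNA replication, load and start the replicative helicase, and build DNA at the fork. They were matched by symbol alone, but the rule was chosen with earlier results of these data known. The rule took the MCM, origin recognition complex (ORC), GINS, replication factor C, replication protein A, primase and numbered polymerase alpha, delta and epsilon genes, together with Pcna, Cdc6, Cdt1, Gmnn, Cdc7, Dbf4, Cdc45, Fen1, Lig1, Ccne1, Ccne2, Slbp, Wdhd1 and Timeless. It found 52 of the 20373 listed genes, and all 52 passed the filter on low values. Their RNA was measured in 2 cell populations sorted from mouse cortex at embryonic day 15.5, with 1 library each. The embryos carried both a Nestin-GFP and a DCX-mRFP reporter and came from heterozygous Nestin-GFP and homozygous DCX-mRFP parents, and no other allele or agent was named. Green cells were labelled neural progenitor cells (NPCs) and cells of both colours were labelled neurons. Whether embryos were pooled is not given in the sources used here.

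Before a cell can copy its DNA, the ORC binds origins, and Cdc6 and Cdt1 then load the ring of Mcm2 to Mcm7 onto them in G1. Geminin, the product of Gmnn, blocks Cdt1 once S phase has begun. Cyclin E with its kinase and the kinase Cdc7 with its activator Dbf4 then switch the loaded ring on, with Cdc45 and GINS joining it to form the moving helicase. Behind it polymerase alpha with primase starts each strand, and polymerases epsilon and delta extend it on the sliding clamp PCNA. In the embryonic cortex, radial glia and intermediate progenitors go through this programme, and young neurons have left the cell cycle for good. Many replication genes are known targets of the E2F transcription factors.

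Listed genes held 26346226 reads in the NPC library, beside 23312054 in the neuron library. Levels are given as CPM, counts per 1000000 on a scale shared by both libraries, on which 1 CPM stood for 26.97 NPC reads or 22.78 neuron reads. Among 10 radial glia markers, 10 were at least 2-fold higher in NPCs. Among 8 measured neuronal markers, 7 were higher in neurons, and for 2 the difference was at least 2-fold. The 2 genes whose regulatory sequences drove the sort were both present on both sides, with Nes at 408.5 CPM in NPCs against 189.5 in neurons and Dcx at 2522 and 3294. With 1 library per population there is no replicate check and no test. The 95% intervals printed with folds are exact Clopper-Pearson intervals on the reads and cover counting error only. In RNA from many cells, fewer cells of a kind and less RNA per cell cannot be told apart.

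Replication genes were lower in neurons as a group, but unevenly so. On the scale log2((neuron + 1)/(NPC + 1)), used for all counts, 12 of the 52 were at least 2-fold higher in NPCs, where 6.73% of the 12693 genes past the filter were. At least 2-fold higher in neurons were 0 of 52, beside 3.85% of all genes. Any excess in NPCs was found for 46 members, beside 50.7% of all genes. The median log2 ratio of the members was −0.71, and that of all genes −0.0049. Without the added 1 CPM the median member was 1.68-fold higher in NPCs, so that the neuron library held 59.5% of its NPC level. The folds ran from 3.85 for Cdc6 to 0.779 for Pold4, the member with the highest neuron to NPC ratio. The counting interval lay wholly above equality for 43 members and included it for 9, and it lay wholly above 2-fold for 9. The same shares over all genes were not computed, so these interval counts do not set the members apart from other genes. Together the members took 0.2499% of the NPC reads and 0.150% of the neuron reads.

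**Figure D1:**
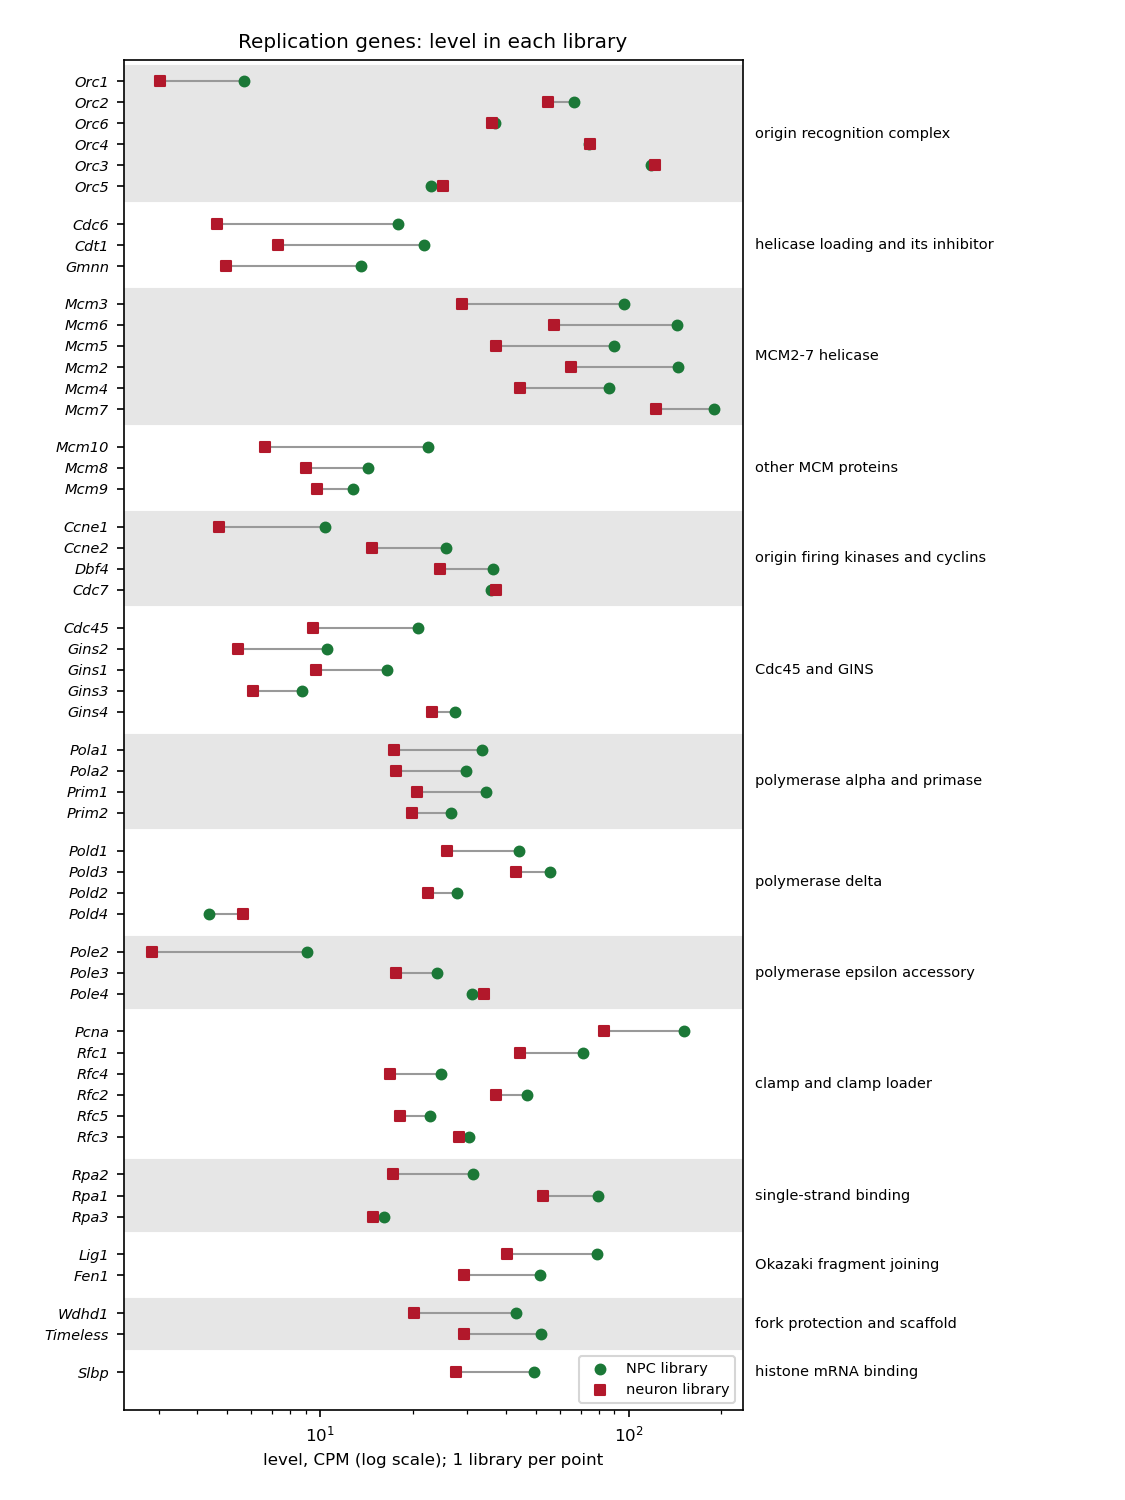
Level of each replication gene in CPM (log axis) in the NPC library (green circles) and the neuron library (red squares), grouped by role. The helicase loading genes and most MCM genes lie far apart, from 17.9 down to 4.65 CPM for Cdc6, while Orc3, Orc4, Orc5 and Orc6 lie almost on top of each other.

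The 12 members at least 2-fold higher in NPCs were Cdc6, Mcm10, Mcm3, Pole2, Cdt1, Gmnn, Mcm6, Mcm5, Mcm2, Ccne1, Cdc45 and Wdhd1. All 3 genes of helicase loading, 4 of the 6 subunits of the ring and 2 activators of the ring, Mcm10 and Cdc45, were among them. With 5 CPM added in place of 1, Gmnn, Pole2, Ccne1, Cdc45 and Wdhd1 fell short of 2-fold, and the other 7 did not. Just inside the threshold lay Cdc45 and Ccne1, with log2 ratios of −1.06 and −1.003, and just outside it Lig1 with −0.96. In the order of folds, the counting intervals of all 51 neighbouring pairs overlapped, so the order is only resolved between genes some distance apart.

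**Figure D2:**
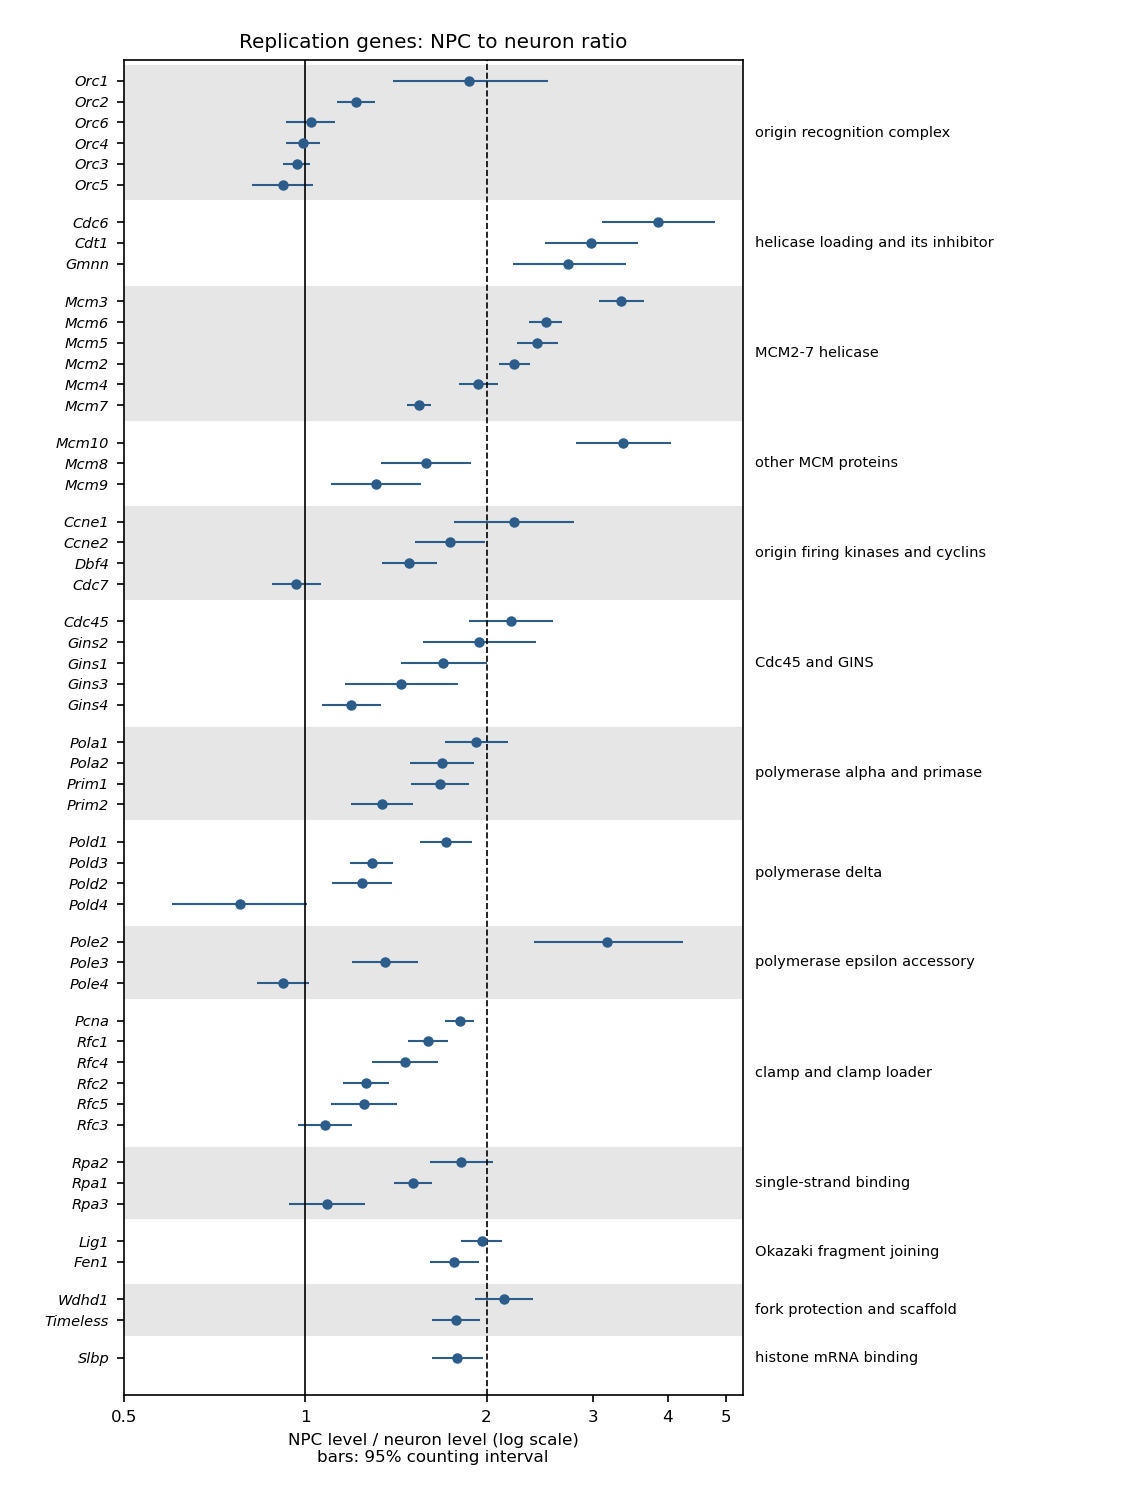
NPC level divided by neuron level for each replication gene (log axis), with 95% counting intervals as bars, a solid line at equality and a dashed line at 2-fold. Cdc6, Cdt1 and Gmnn stand wholly above 2-fold, and Orc3, Orc4, Orc5 and Orc6 have intervals that include equality.

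The promoters of these genes were compared with others, because the E2F sites through which S phase genes are known to be controlled can be read from sequence. RefSeq promoters of build GRCm38.p6, each running from 250 bases before to 50 after an annotated start, were at hand for 44 members (54 promoters). The E2F motif was searched as the words TTTGGCGC, TTTCCCGC, TTTCGCGC and TTTGCCGC on both strands. It was found in 18 of the 54 promoters (33.3%), which belonged to 17 genes. Of all 32851 promoters given by RefSeq, 2.26% held it, and among the 11745 promoters of genes past the filter 3.88% did. Among 43 promoters of other replication pathway genes, described further below, 12 (27.9%) held it, so the high share is not particular to the members. Promoters with a GC box, searched as GGGCGG, held an E2F word in 4.58% of cases among genes past the filter and in 15 of 40 among members. The stretches below are 30 bases around these words, 5′ to 3′ on the strand of the gene, with the words in capitals. They are shown for 6 members at least 2-fold higher in NPCs and for 3 that were not, so that words can be seen on both sides. The word TTTGGCGC is in none of these 3 on either strand. It also stood, as GCGCCAAA, in Pola1 (1.92-fold) and Mcm8 (1.59-fold), which are not shown.

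Cdc6, chr11:98908002-98908031, + strand: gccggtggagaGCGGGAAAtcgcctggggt
Mcm3, chr1:20820275-20820304, − strand: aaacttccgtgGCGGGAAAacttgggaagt
Pole2, chr12:69228162-69228191, − strand: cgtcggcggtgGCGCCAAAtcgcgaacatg
Cdt1, chr8:122568035-122568064, + strand: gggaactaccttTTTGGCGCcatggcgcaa
Mcm6, chr1:128359795-128359824, − strand: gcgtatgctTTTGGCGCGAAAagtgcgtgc
Mcm5, chr8:75109347-75109376, + strand: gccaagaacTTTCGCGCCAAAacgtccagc
Orc1, chr4:108579416-108579445, + strand: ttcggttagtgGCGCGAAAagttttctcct
Orc3, chr4:34614965-34614994, − strand: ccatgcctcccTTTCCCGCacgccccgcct
Pole4, chr6:82652890-82652919, − strand: ctctacccggcGCGGGAAAggggccgaaat

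In Mcm6 and Mcm5 the words TTTGGCGC and TTTCGCGC, read on opposite strands, share bases and form a run of 12. The words above start between 153 bases upstream of the annotated start (Mcm5) and 33 bases after it (Cdt1), and there is a further one in Mcm6 at 47 bases upstream and in Mcm3 at 39 bases after the start. Over all members there were 21 separate sites, 11 upstream of the start and 10 after it. None of the 21 shared bases with a GC box and 1, in Mcm7, shared a base with a CCAAT word. The 17 genes with an E2F word had a median fold of 1.87 and ranged from 3.85 (Cdc6) down to 0.920 (Pole4), with 6 at least 2-fold higher in NPCs. The 27 genes without one had a median of 1.51 and ranged from 3.37 (Mcm10) to 0.779 (Pold4), with 5 at least 2-fold higher. The ranges overlapped over most of their length. A match is a description of the letters in this window and no evidence that a factor binds there.

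The share of member promoters with a motif of mitosis genes lay between that of all promoters and that of promoters past the filter. The CHR word TTTGAA, known from promoters of G2/M genes, stood in 8 of the 54 member promoters (14.8%), beside 17.9% of all promoters and 11.6% of those past the filter. Among promoters with a GC box it stood in 6 of 40 of members and in 9.02% of those past the filter. Among 21 promoters of mitosis genes it stood in 15 (71.4%), while 1 of them (4.76%) held an E2F word. In the other replication pathway genes it stood in 10 of 43 promoters (23.3%). The CCAAT word was in 27 of the 54 member promoters (50%) and in 37.4% of all promoters. The share of member promoters with a GC box was 74.1%, beside 63.0% of promoters of genes past the filter.

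**Figure D3:**
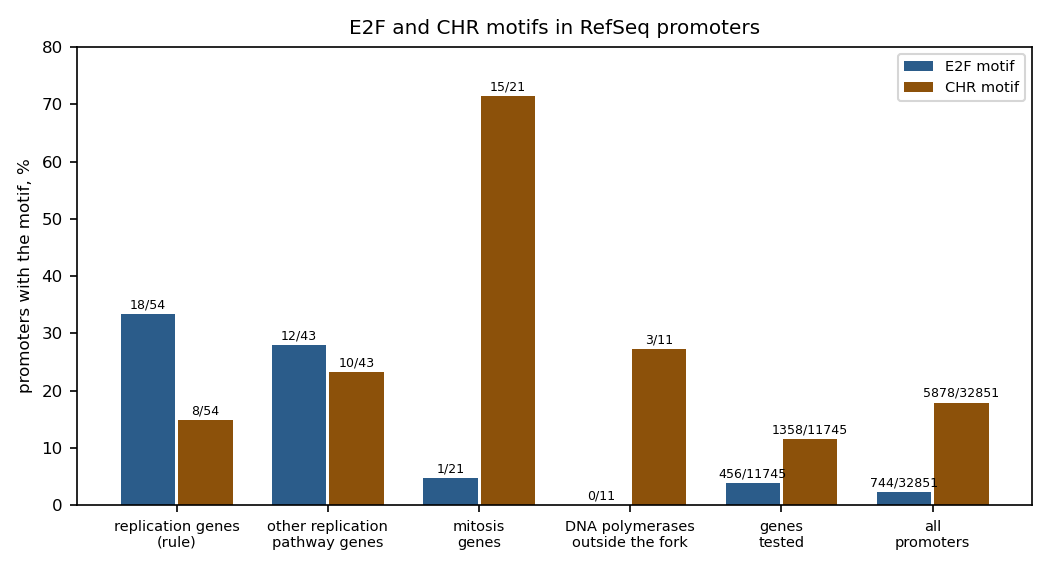
Share of RefSeq promoters that hold an E2F word (blue) or the CHR word (brown) on either strand, in percent, with the number of promoters above each bar. E2F words are most frequent in the replication genes (33.3%), followed by the other replication pathway genes (27.9%). CHR words are most frequent in the mitosis genes (71.4%).

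The ORC, which seats the helicase, was the group closest to equality by its median log2 ratio of −0.01. Of its 6 members 0 were 2-fold apart, beside 6.73% of all genes towards NPCs and 3.85% towards neurons. That count alone does not set the ORC apart from other genes. Orc3 was at 117.9 CPM in NPCs against 121.8 in neurons (1.03-fold more in neurons, 0.981 to 1.09). Orc4 was at 74.6 and 75.1 (1.01-fold more in neurons, 0.944 to 1.07), and Orc5 at 22.9 and 24.98 (1.09-fold more in neurons, 0.971 to 1.22). Orc6 was at 36.96 and 36.2 (1.022-fold more in NPCs, 0.931 to 1.12). No difference of these 4 was detectable beyond counting error. With scaling by total reads Orc3 and Orc4 were higher in NPCs, and Orc4 also with scaling by upper quartile. Orc2 was at 66.5 and 54.8 (1.21-fold more in NPCs, 1.128 to 1.31). Orc1, the large subunit whose level is known to rise and fall in the cell cycle, was at 5.67 and 3.03 CPM (1.87-fold more in NPCs, 1.40 to 2.53). Its interval lay above those of the other 5 subunits. It was also the scarcest of them per length of transcript, at 1.88 CPM per kb in NPCs, beside 25.2 for Orc6.

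All 3 genes that act in loading the helicase onto ORC were at least 2-fold higher in NPCs. Their median log2 ratio was −1.46, beside −1.199 for the helicase ring. With 5 CPM added this order turned, at −1.12 and −1.14. Cdc6, the ATPase that joins ORC in G1, was at 17.9 CPM in NPCs against 4.65 in neurons (3.85-fold, 3.11 to 4.79). By the scale with 1 CPM added it had rank 143 of the 12693 genes when these were ordered from the lowest neuron to NPC ratio. Cdt1, its partner in loading, was at 21.7 and 7.29 (2.98-fold, 2.51 to 3.56). Gmnn, whose product inhibits Cdt1, was at 13.6 and 4.96 (2.74-fold, 2.21 to 3.41). The intervals of Cdt1 and of its inhibitor overlapped. Per length, Cdt1 stood at 0.824 of the level of Gmnn in NPCs and at 0.756 in neurons.

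The 6 genes of the helicase ring were all higher in NPCs, 4 of them at least 2-fold, and their median log2 ratio was −1.199. The ring contains each subunit once, yet the folds of its transcripts were spread beyond counting error. Mcm3 was at 96.5 CPM in NPCs against 28.8 in neurons (3.35-fold, 3.07 to 3.65). Mcm6 was at 143.96 and 57.4 (2.51-fold, 2.36 to 2.67), and Mcm5 at 90.05 and 37.1 (2.43-fold, 2.24 to 2.63). Mcm2 was at 145.1 and 65.2 (2.22-fold, 2.10 to 2.36), and Mcm4 at 86.2 and 44.5 (1.94-fold, 1.799 to 2.09). Mcm7 was at 189.7 and 122.7 (1.55-fold, 1.48 to 1.62). The interval of Mcm3 lay above, and that of Mcm7 below, those of the other ring subunits. Per length of the longest coding transcript, levels in NPCs ran from 24.03 CPM per kb (Mcm4) to 64.1 (Mcm7). In neurons they ran from 9.51 (Mcm3) to 41.4 (Mcm7), so that the highest stood 2.67-fold above the lowest in NPCs and 4.35-fold in neurons. The level of Mcm3 relative to Mcm7, per length, was 0.497 in NPCs and 0.230 in neurons.

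Of the MCM genes outside the ring, 1 of 3 was at least 2-fold higher in NPCs. Mcm10, which is needed for the loaded ring to start moving, was at 22.3 and 6.63 CPM (3.37-fold, 2.81 to 4.05). Mcm8 was at 14.3 and 8.999 (1.59-fold, 1.34 to 1.89) and Mcm9 at 12.8 and 9.79 (1.31-fold, 1.10 to 1.56). Both of these act mainly in recombination repair, and their intervals lay below that of Mcm10.

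The kinases and cofactors that fire the loaded origins were divided. Ccne1, cyclin E1, was at 10.4 CPM in NPCs against 4.70 in neurons (2.22-fold, 1.77 to 2.80), and Ccne2, cyclin E2, at 25.5 and 14.7 (1.74-fold, 1.52 to 1.99). The intervals of these paralogues overlapped. Cdc7 was at 35.96 and 37.2 (1.04-fold more in neurons, 0.943 to 1.14), and its direction turned with scaling by total reads. Its activating subunit Dbf4 was at 36.4 and 24.4 (1.49-fold more in NPCs, 1.34 to 1.65), with an interval above that of Cdc7. Per length, Dbf4 stood at 1.32 of the level of Cdc7 in NPCs and at 0.856 in neurons. The interval of the kinase included equality and that of its activator did not.

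Cdc45 and the 4 GINS genes were all higher in NPCs, from 1.19-fold to 2.19-fold. Cdc45 was at 20.8 and 9.48 CPM (2.19-fold, 1.87 to 2.58). Among the GINS genes, which encode a complex of 4 different subunits, the order was Gins2 (10.6 and 5.44 CPM, 1.94-fold), Gins1 (16.5 and 9.74, 1.70-fold), Gins3 (8.75 and 6.06, 1.44-fold) and Gins4 (27.5 and 23.04, 1.19-fold). The interval of Gins4 (1.06 to 1.34) lay below those of Gins2 (1.57 to 2.42) and Gins1 (1.44 to 2.00).

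Polymerase subunits of the rule differed less than the loading and ring genes. Of the 11 subunits, 1 was at least 2-fold apart (0 of 11 with 5 CPM added). A gap of that size was seen for 6.73% of all genes towards NPCs and for 3.85% towards neurons. The count of 1 therefore does not set these subunits apart from other genes. It also leaves out the catalytic subunit gene Pole, which lay outside the rule and was past 2-fold (2.21-fold more in NPCs). In the complex of polymerase alpha and primase, which lays down the primers, the catalytic subunit gene Pola1 was at 33.5 CPM in NPCs against 17.4 in neurons (1.92-fold, 1.71 to 2.17). Pola2 was at 29.8 and 17.7 (1.69-fold), the primase catalytic subunit gene Prim1 at 34.5 and 20.6 (1.67-fold) and Prim2 at 26.6 and 19.8 (1.34-fold, 1.19 to 1.51). Pold1, the catalytic subunit of the lagging strand polymerase delta, was at 44.2 and 25.9 (1.71-fold, 1.55 to 1.89).

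The accessory subunits of polymerase delta were closer to equality. Pold3 was at 55.6 and 43.1 CPM (1.29-fold, 1.19 to 1.40) and Pold2 at 27.8 and 22.4 (1.24-fold, 1.11 to 1.39). Pold4, the smallest subunit, was at 4.37 and 5.62 (1.28-fold more in neurons, 0.992 to 1.66), on 118 and 128 reads, a difference within counting error. The polymerase epsilon genes of the rule were divided. Pole2, the second subunit of the leading strand polymerase, was at 9.05 and 2.85 (3.17-fold, 2.40 to 4.23). Its partners Pole3 and Pole4 form a histone-fold pair and also occur in chromatin complexes. Pole3 was at 23.9 and 17.6 (1.36-fold, 1.19 to 1.54), and Pole4 at 31.2 and 33.9 (1.09-fold more in neurons, 0.984 to 1.2). The intervals of the 3 genes did not overlap. The catalytic subunit gene Pole, which lies outside the rule and was picked out afterwards, from its value, stood at 64.06 and 28.9 (2.21-fold, 2.02 to 2.43).

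The clamp, its loader and the single-strand binding proteins were higher in NPCs in all 9 cases, by less than 2-fold. Pcna, the sliding clamp, was at 150.7 CPM in NPCs against 83.5 in neurons (1.81-fold, 1.71 to 1.91). GENCODE lists the processed pseudogenes Pcna-ps1 and Pcna-ps2, and any reads shared with them would make this value uncertain. Sharing of reads with pseudogenes was not tested, for Pcna or for any other member. The loader's large subunit gene Rfc1 was at 71.3 and 44.6 (1.60-fold, 1.48 to 1.73) and Rfc4 at 24.7 and 16.9 (1.46-fold). Rfc2, Rfc5 and Rfc3 had folds of 1.26, 1.25 and 1.08 in favour of NPCs, and the interval of Rfc3 (0.972 to 1.198) included equality.

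Replication protein A covers single-stranded DNA at forks and at sites of repair. Rpa2 was at 31.3 and 17.3 CPM (1.82-fold, 1.61 to 2.05), Rpa1 at 79.7 and 52.8 (1.51-fold, 1.41 to 1.62) and Rpa3 at 16.2 and 14.9 (1.09-fold, 0.9404 to 1.26). The 3 subunits bind in equal numbers, and the intervals of Rpa2 and Rpa3 did not overlap.

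Genes for finishing the lagging strand and holding the fork together lay close to each other. Lig1, the ligase that seals Okazaki fragments, was at 79.04 and 40.3 CPM (1.96-fold, 1.82 to 2.12), and Fen1, the nuclease that trims them, at 51.6 and 29.2 (1.77-fold, 1.61 to 1.94). Wdhd1, which ties polymerase alpha to the helicase, was at 43.2 and 20.2 (2.14-fold, 1.92 to 2.39), and Timeless, of the fork protection complex, at 52.1 and 29.3 (1.78-fold, 1.62 to 1.95). Slbp, which binds the stem-loop of histone mRNAs in S phase, was at 49.3 and 27.6 (1.79-fold, 1.63 to 1.97).

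Other genes of the replication pathway, listed by function and not by the rule, were mostly higher in NPCs too. That list was also written with earlier results of these data known, so it is no independent support. Of 46 such genes, 43 were higher in NPCs, beside 50.7% of all genes. At least 2-fold higher in NPCs were 17, beside 6.73% of all genes. At least 2-fold the other way were 0, beside 3.85%. The median log2 ratio was −0.86. Among 21 fork and checkpoint partners, 7 were at least 2-fold higher in NPCs. The checkpoint adaptor gene Clspn was at 41.3 and 12.7 CPM (3.26-fold, 2.86 to 3.72). The exonuclease gene Exo1 and the origin firing gene Ticrr, listed as 5730590G19Rik, were 3.44-fold and 2.99-fold higher in NPCs. Closest to equality were Top2b (824.1 and 806.9 CPM), the topoisomerase also found in non-dividing cells, and Mcmbp (101.1 and 98.5), which binds MCM proteins.

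Among 8 genes of deoxynucleotide supply, 4 were at least 2-fold higher in NPCs. Rrm2, the S phase subunit of ribonucleotide reductase, was at 142.4 and 57.9 CPM (2.46-fold, 2.31 to 2.62). The thymidine kinase gene Tk1 was 2.55-fold higher in NPCs, and the pyrophosphatase gene Dctpp1 was at 21.7 and 22.6 CPM. Among 9 genes of nucleosome assembly, all 9 were higher in NPCs and 2 at least 2-fold. These were Uhrf1 (3.08-fold) and the histone chaperone gene Asf1b (2.91-fold), while Dnmt1, the maintenance methyltransferase, was at 249.4 and 235.9 CPM.

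The list of E2F factors and S phase kinases had 8 of 8 genes higher in NPCs and 4 at least 2-fold. E2f8, an atypical repressor, was at 18.2 CPM in NPCs against 5.66 in neurons (3.21-fold, 2.64 to 3.93), and E2f2, an activator, at 16.8 and 5.36 (3.13-fold, 2.56 to 3.85). Ccna2, the cyclin of S phase and G2, was at 142.9 and 52.2 (2.74-fold, 2.56 to 2.92). Cdc25a was nearest to equality of the 8, at 71.2 and 56.9 (1.25-fold).

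DNA polymerases that work outside the replication fork served as a comparison for the family. Of 11 past the filter, 0 were 2-fold apart in either direction, 8 were higher in NPCs and the median log2 ratio was −0.14. Polq, the polymerase of end joining, had the largest difference, at 30.6 and 16.7 CPM (1.83-fold more in NPCs, 1.62 to 2.08). Polb, of base excision repair, was at 33.9 and 43.6 (1.29-fold more in neurons, 1.17 to 1.41). Mitosis genes lay farther from equality than the replication genes. Of 24, 23 were at least 2-fold higher in NPCs. The median log2 ratio was −1.47, with folds from 1.87 to 3.44, a narrower spread than that of the replication genes. The mitosis list was written by hand with earlier results of these data known, while the rule took whole numbered families. Their medians and spreads therefore do not compare like with like. These lists are described by counts and medians, and the differences between them were not tested.

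**Figure D4:**
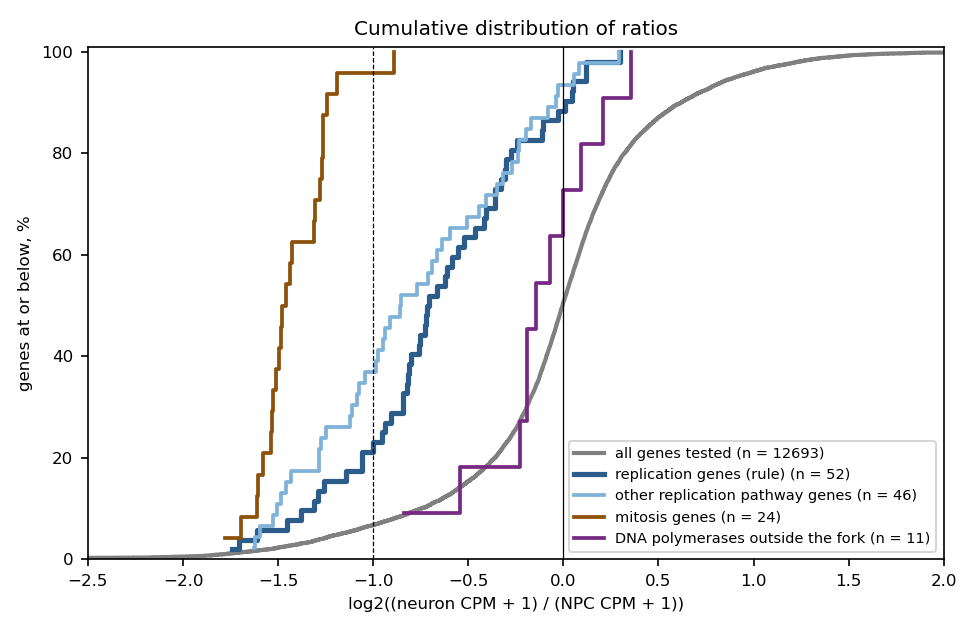
Cumulative share of genes (percent) by log2((neuron CPM + 1)/(NPC CPM + 1)) for the 52 replication genes, 46 other replication pathway genes, 24 mitosis genes, 11 DNA polymerases outside the fork and all 12693 genes tested, with a dashed line at 2-fold. The replication genes spread from −1.74 to 0.30 and the mitosis genes from −1.78 to −0.89, with a median of −1.47. The 2 sets were not chosen in the same way, so their spreads do not compare like with like.

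Several replication genes start near a gene that is transcribed the other way, which gives a comparison between neighbouring genes. Whether the 2 genes of a pair share a promoter was not tested, and the starts of Gins1 and Abhd12 lay 659 bases apart. In GENCODE M21, 14 of the 52 members had a protein-coding neighbour on the opposite strand whose start lay within 1000 bases upstream or overlapped the member by under 500 bases. For 13 of them the neighbour was past the filter. This comparison was added after the data had been seen. The 13 neighbours had a median fold of 1.06, beside 1.59 for their replication partners. With 1 CPM added, 0 of the 13 were 2-fold apart, beside 6.73% of all genes towards NPCs and 3.85% towards neurons. Without the added value 1 was, 4933430I17Rik. The replication gene had the larger fold in 11 of 13 pairs, in 9 of them with separate intervals. In no pair did the neighbour's interval lie above. Among the separate pairs was Orc6, whose own interval included equality (0.931 to 1.12), beside Vps35 (0.851 to 0.923). The same counts for other pairs of genes were not computed, so these counts do not set the pairs apart. The 2 pairs with the larger fold in the neighbour were those of Pole3, at 1.36-fold beside 2.05-fold (1.28 to 3.37) for 4933430I17Rik, which was at 2.34 CPM in NPCs against 1.14 in neurons, and Orc3, at 0.968-fold beside 1.14-fold (1.01 to 1.29) for Rars2.

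Cdc45 and Ufd1l, a gene of protein degradation, were 2.19-fold and 1.06-fold higher in NPCs (1.87 to 2.58 and 0.9899 to 1.14). Mcm4 and Prkdc, the DNA-dependent kinase of end joining, were 1.94-fold and 1.32-fold higher in NPCs. Fen1 was 1.77-fold higher in NPCs, and its neighbour Tmem258, listed as 1810006K21Rik, was at 18.1 CPM in NPCs against 22.5 in neurons. Gins1 was 1.70-fold higher in NPCs, and its neighbour Abhd12 was at 36.6 and 51.2 CPM, with the higher level in neurons. Orc1 and the splicing factor gene Prpf38a were 1.87-fold and 1.01-fold higher in NPCs. Wdhd1 and Socs4 (2.14-fold and 1.74-fold) had overlapping intervals. Whether reads were counted by strand is not given in the sources used here, so reads from overlapping first exons may be shared within a pair.

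**Figure D5:**
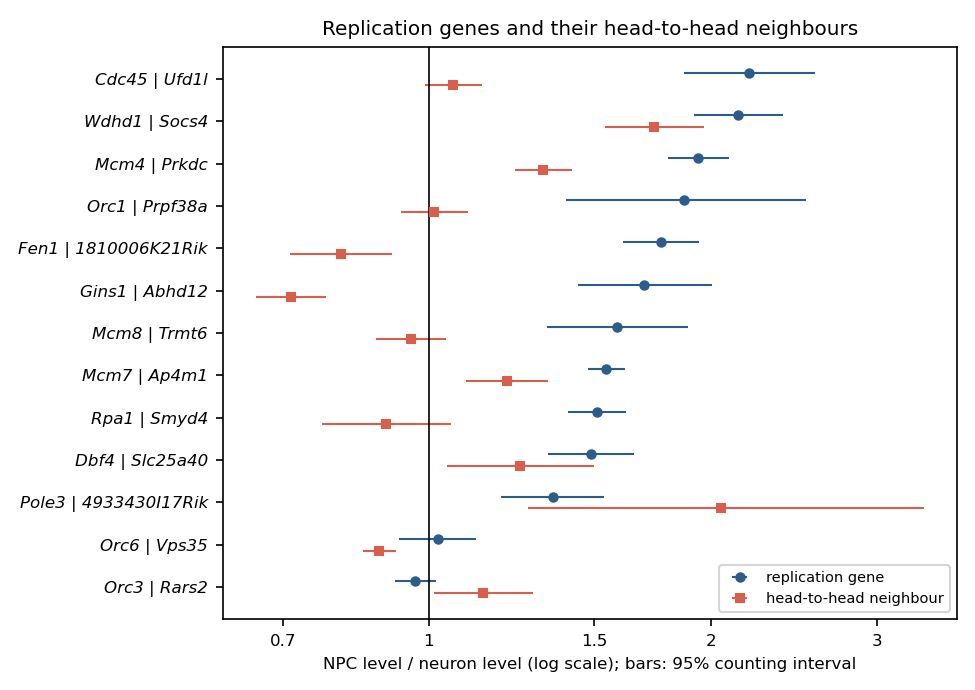
NPC level divided by neuron level (log axis, 95% counting intervals) for 13 replication genes (blue circles) and their head-to-head neighbours (red squares). In 9 pairs the 2 intervals are separate and the replication gene lies to the right. The same count for other pairs of genes was not computed.

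Markers of other cell types differed between the same libraries. Of the 8 pericyte and mural cell markers past the filter, 7 had a level at least 2-fold higher in NPCs, while the 9 listed summed to 206.4 CPM in NPCs against 11.5 in neurons. The 9 endothelial markers, 8 of them at least 2-fold higher in NPCs, summed to 25.5 and 3.998 CPM, and the 5 of oligodendrocyte precursors, all at least 2-fold higher, to 51.5 and 1.98. Microglia markers went the other way, with 9 of 10 at least 2-fold higher in neurons and sums of 35.2 and 155.1. The mural marker Des had 0 reads in the neuron library, which allows up to 0.132 CPM, and every other listed marker of these 4 cell types had at least 1 read in both. The part of these cells in the levels of the replication genes was not tested. Markers of intermediate progenitors, which divide, summed to 2026 CPM in NPCs against 829.9 in neurons, and those of radial glia to 1833 and 668.9.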

How the data were processed

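RNA was extracted with TRIzol from sorted cells and sequenced after an Illumina TruSeq preparation, per the labels' protocols. CASAVA 1.9, SAMtools 0.1.18, TopHat 1.2.0, edgeR and build mm9 are listed without roles, per the submitters' processing notes. The gene annotation and the treatment of strand and of multiply aligned reads are not stated in the sources. The deposited values are a signal per gene, made of whole multiples of 1 step (0.952727 in NPCs, 1.12797 in neurons). Division by it gave whole reads within 0.05 for 100% and 99.9656% of genes. Neuron values under 0.01 were read as 0. The unit differed from those planned for, so CPM was settled after the values were seen, as were the shares among promoters with a GC box.

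Both libraries were divided by 1 constant, the mean of their sums (25698104), to give CPM, which keeps the deposited ratio. Genes with at least 1 CPM in a library were compared with 1 CPM added. Folds of single genes carry no added value. Transcript lengths, used only for levels per kb, are those of the longest protein-coding transcript in GENCODE M21. Motifs were read from the RefSeq promoter table. TMM factors came from edgeR 4.0.16 in R 4.3.3, and other steps used Python 3.11.15, NumPy 2.4.6, pandas 2.3.3 and SciPy 1.17.1. Step recovery, folds and intervals were tested on simulated data.

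The members and lists were chosen with earlier results of these data known. All members are named. From the pathway and polymerase lists up to 3 genes of largest and 2 of smallest absolute log2 ratio are named. Some genes that this rule names are not reported here. Of 213 listed genes 2 were not found by symbol. With 1 library per population no p-value was computed. Alternatives were scaling by total reads, TMM or upper quartile, 0.5, 5 or no CPM added, and no minimum or one of 10 CPM.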

Additional observations from a re-analysis of the deposited data

How the results depend on the processing

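With 5 CPM added in place of 1, the number of replication genes at least 2-fold higher in NPCs moved from 12 to 7, and the share of all genes from 6.73% to 3.14% (from 3.85% to 1.88% for neurons), because a larger added value shrinks the ratios of low genes. Gmnn, Pole2, Ccne1, Cdc45 and Wdhd1 lost the call, and the median of the helicase loading genes moved from −1.46 to −1.12, short of that of the helicase ring (−1.14). Under the other 7 alternatives the number was 11 to 14, with 14 under scaling by total reads. The number higher in NPCs by any amount was 43 to 49, the former with a minimum of 10 CPM, which left 48 members. The latter came with scaling by total reads, which moved all genes towards NPCs. There 58.1% of all genes were higher in NPCs by any amount and 7.39% at least 2-fold, and their median log2 ratio was −0.069. The count at least 2-fold higher in neurons was 0 in every alternative. The members' median log2 ratio ran from −0.77 (total reads) to −0.59 (5 CPM added). The direction of Orc3, Orc4 and Cdc7 turned with scaling by total reads, and that of Orc4 with upper quartile. The setting with no CPM added was chosen after the data had been seen. With 1 library per population, depth limits only the counting error. The scarcest member had 65 reads in a library (Pole2, neurons), and differences between the cell populations and between these 2 libraries cannot be told apart.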

Other observations

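Pairs of related genes around the fork, picked out after their values were seen, differed within the pair. The topoisomerase gene Top2a was at 343.7 CPM in NPCs against 124.4 in neurons (2.76-fold more in NPCs, 2.65 to 2.88), beside 1.021-fold (1.001 to 1.04) for Top2b. The histone chaperone gene Asf1b was at 8.82 and 3.03 (2.91-fold, 2.22 to 3.87), beside 51.7 and 44.9 (1.15-fold, 1.06 to 1.25) for its paralogue Asf1a. In RNase H2, which removes ribonucleotides from DNA, Rnaseh2b was 2.01-fold higher in NPCs (1.798 to 2.25), while the catalytic subunit gene Rnaseh2a was 1.21-fold (1.08 to 1.36) and Rnaseh2c 1.19-fold (1.03 to 1.37) higher there. Of the alternative clamp loader that acts in sister chromatid cohesion, Chtf18 and Dscc1 were 2.01-fold and 2.74-fold higher in NPCs, and the third subunit gene, Chtf8, was at 169.7 and 179.5 CPM.

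The fork gene Donson, likewise picked out by its value and a factor of helicase assembly, went against most of its list. It was at 22.2 CPM in NPCs against 27.4 in neurons (1.23-fold more in neurons, 1.10 to 1.38). It and Chtf8 were the 2 of 21 fork and checkpoint partners with the higher level in neurons.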
